A study of Mus musculus with 27 samples.

Results

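The 5 connexin genes of the mouse esophagus, Gja1, Gjb2, Gjb5, Gjb6 and Gjd4, were followed through development and in mutants of the Nrf2/Keap1 pathway. They were taken by name, with earlier results of these data known. Counts of calls among them are therefore descriptions and no test of the connexin family. Every array feature that was not a control and carried one of these gene symbols was used, and the probes of a gene were averaged. The 5 genes were found among 28146 genes with a named probe and are 5 of the 20 connexin genes on the array. Together they had 7 probes. Gja1 was read by 1 probe printed in 10 spots, Gjb2 and Gjb6 by 2 probes each, and Gjb5 and Gjd4 by 1 probe each. The transcript accession of all 7 probes matched a RefSeq gene of the same connexin. The Gjd4 probe carried the name 9430022F06Rik in an older annotation.

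Connexins are membrane proteins that assemble into a hexagonal hemichannel. Hemichannels of neighbouring cells dock into gap junctions, through which ions and small metabolites pass from cell to cell. Stratified epithelia build gap junctions from several connexins at once: Gja1 (Cx43) is the widely expressed alpha connexin, Gjb2 (Cx26) and Gjb6 (Cx30) are beta connexins whose mutations cause deafness and skin disease, and Gjb5 (Cx31.1) is a beta connexin of squamous epithelia. Gjd4 (Cx39) is a delta connexin of developing skeletal muscle.

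The data held 27 two-colour arrays, 3 in each of 9 groups. Whole esophagi of wild-type C57BL/6J mice were sampled before birth (E11.5 and E15.5) and after it (P0 and P7), ages over which the columnar lining turns into a keratinized squamous one. Whole esophagi of Nrf2-/-, Keap1-/- and Nrf2-/-Keap1-/- mice on a C57BL background were sampled at P7, and the esophageal epithelium of wild-type and Nrf2-/- adults at 8 weeks. The mutations are germline and act in all cells. Nrf2, the product of Nfe2l2, is a transcription factor that induces antioxidant genes, and Keap1 holds it in check by marking it for degradation. Cy5 marked the RNA of the sample and Cy3 a common reference, Universal Mouse Reference RNA, a mixture from 11 mouse cell lines, and dyes were not exchanged. A level is given as log2 of Cy5 over Cy3, so 0 means as much signal as the reference and 1 unit is a doubling. Since the reference holds a different amount of each transcript, levels can be set side by side between groups for 1 gene but not between genes. Testing with limma required a probe whose Cy5 signal was well above background on 3 or more arrays of a fit. A gene was called where its p, adjusted by Benjamini-Hochberg over all tested genes, was at most 0.05. The P7 samples were whole esophagus and the adult samples epithelium, so age and tissue cannot be told apart between them. In whole tissue, fewer cells of a type and less RNA per cell cannot be told apart either.

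Median spot intensity ranged from 81.8 to 226 in Cy5 and from 115 to 386 in Cy3, and 58.9% to 69.3% of probes stood well above background in Cy5. Nfe2l2 ranged from -0.55 to 0.00 in wild-type P7 esophagi and from -4.14 to -3.82 in the 6 Nrf2-/- and Nrf2-/-Keap1-/- esophagi. Keap1 did not separate the arrays labelled Keap1-/- (-0.26, 0.22 and 0.64) from the wild type (0.54, 1.00 and 0.42; adjusted p = 0.145, limma). In the Nrf2-/-Keap1-/- esophagi it read -0.50, -0.32 and -0.19, below all wild-type P7 arrays. The place of its probe relative to the deletion is not given in the sources used here. No other group shared the slide or the scan of the arrays labelled Keap1-/-. They were read with a newer release of the scanner software than all other P7 arrays. Genotype, slide, scan and software therefore cannot be told apart for them. The wild-type P7 arrays were also alone on their slide. In every comparison with them, genotype or age therefore cannot be told apart from slide. The embryonic and the P0 arrays shared no slide either. On average 11.7% of spots were outlier-flagged with the older release and 1.39% with the newer. A pair of embryonic arrays resembled the other age over all genes. For replicate 3 of E11.5, r was 0.975 and 0.970 against the second and the third E15.5 array, but 0.827 and 0.770 against its own group. For replicate 1 of E15.5, r was 0.952 and 0.918 against the first and the second E11.5 array, but 0.802 and 0.811 against its own group. Both kept their labels. The group means and ranges include them, and the calls of the metaplasia phase are also given without them.

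Promoter sequences are shown for Gja1, Gjb2 and Gjb5, because the probe means of these 3 genes were called higher in the Keap1-/- esophagi. For Gjb2 the call of the ratio rested on the dimmer of its 2 probes. Each is the 250 bases before the annotated start of the gene, 5′ to 3′ on the strand of the gene, from RefSeq on GRCm38.p6. Gja1 lies on chromosome 10 from 56377300 to 56390419 and its promoter is chr10:56377050-56377299 on the plus strand. Gjb2 lies on chromosome 14 from 57098602 to 57104702 and its promoter is chr14:57104703-57104952 on the minus strand. Gjb5 lies on chromosome 4 from 127354809 to 127358164 and its promoter is chr4:127358165-127358414 on the minus strand. Capitals mark an AP-1 site in Gja1 and GC boxes in Gjb2.
Gja1: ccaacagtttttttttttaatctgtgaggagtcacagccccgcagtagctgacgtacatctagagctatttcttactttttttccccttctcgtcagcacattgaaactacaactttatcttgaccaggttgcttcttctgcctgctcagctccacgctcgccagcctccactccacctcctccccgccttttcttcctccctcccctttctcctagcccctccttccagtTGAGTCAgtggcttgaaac
Gjb2: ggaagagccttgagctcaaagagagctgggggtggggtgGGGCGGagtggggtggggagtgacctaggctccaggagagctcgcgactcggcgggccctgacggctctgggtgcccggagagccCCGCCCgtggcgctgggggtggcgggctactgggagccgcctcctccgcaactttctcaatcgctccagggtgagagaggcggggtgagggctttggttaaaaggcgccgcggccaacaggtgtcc
Gjb5: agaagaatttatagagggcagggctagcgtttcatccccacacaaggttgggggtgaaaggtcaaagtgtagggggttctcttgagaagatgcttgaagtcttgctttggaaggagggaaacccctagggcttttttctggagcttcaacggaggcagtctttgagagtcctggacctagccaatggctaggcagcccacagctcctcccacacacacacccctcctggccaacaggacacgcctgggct

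In all, 3 motifs were searched on both strands of these promoters and of Gjb6, which lies on chromosome 14 as well (57123301 to 57133611, minus strand). The core of the antioxidant response element, TGACNNNGC, to which Nrf2 binds, was found in 10.2% of 32851 promoters of the same length and in none of the 4. The AP-1 site, TGAGTCA, was found in 4.46% of all promoters and began at position -19 of Gja1, counted back from its start. The GC box, GGGCGG, was found in 32.7% of all promoters and lay at 2 positions in Gjb2, beginning at position -211 on the strand of the gene and at position -126 as its reverse complement CCGCCC. GC content was 50% in Gja1, 69.2% in Gjb2, 54.4% in Gjb5 and 56.8% in Gjb6. No sequence is shown for Gjd4, which lies on chromosome 18 from 9278124 to 9289808.

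**Figure D1:**
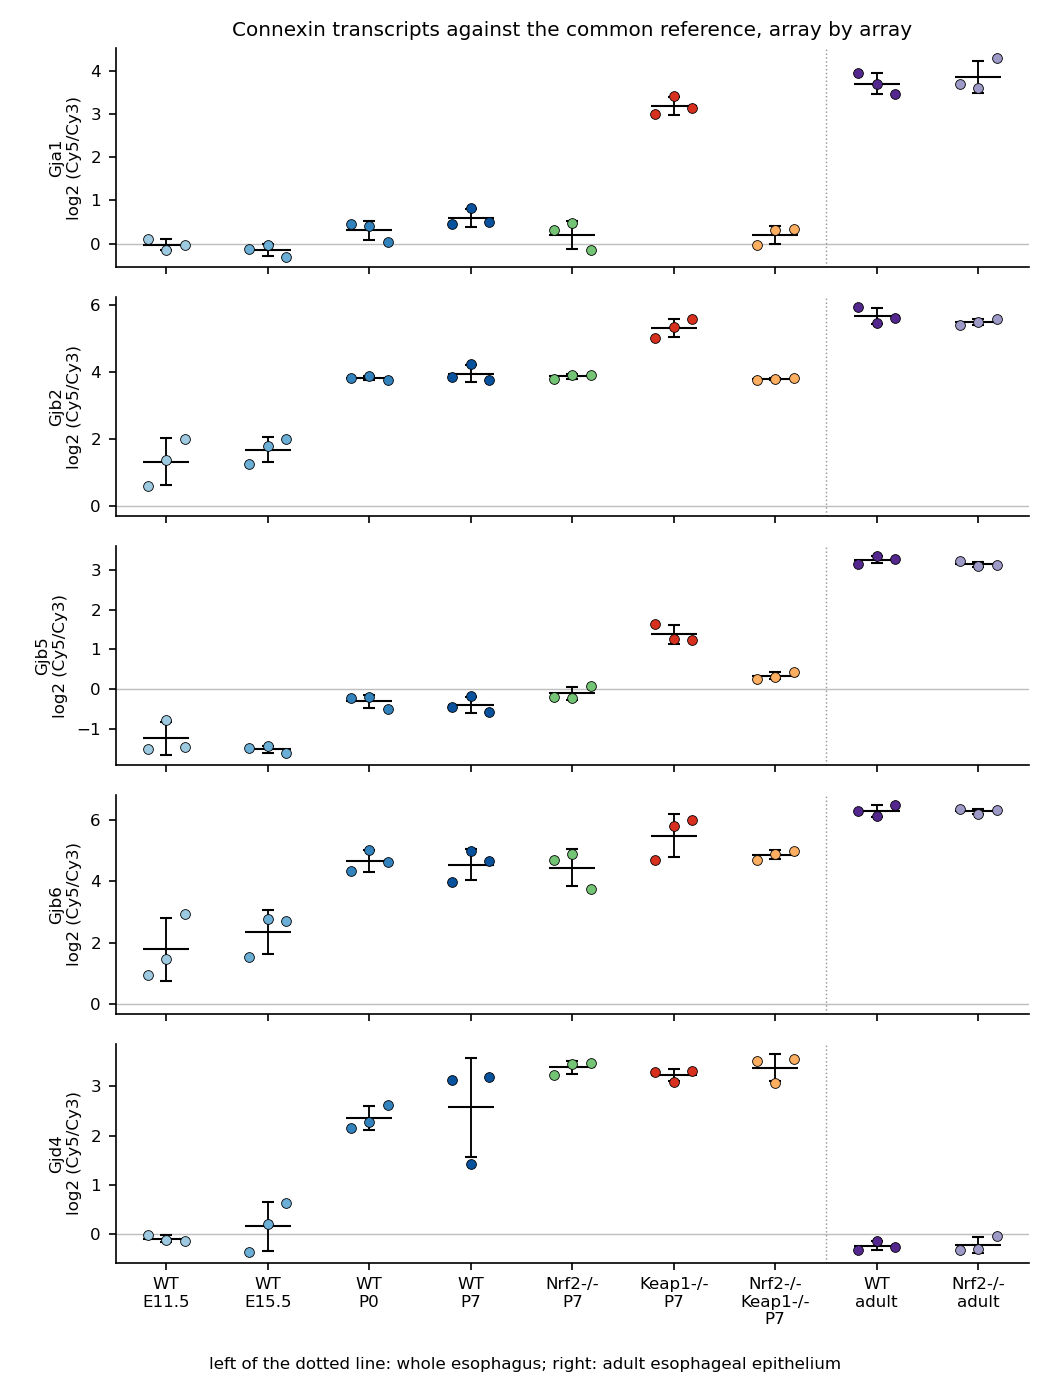
Level of each connexin on every array, as log2 of Cy5 over Cy3, with the 9 groups along the horizontal axis. Points are single arrays and bars the mean of 3. Gja1 and Gjb5 stood high in adult epithelium and in Keap1-/- esophagi, Gjb2 and Gjb6 had already risen by P0, and Gjd4 was high in postnatal whole esophagus. In adult epithelium the Cy5 signal of Gjd4 was not well above background, so its ratio near 0 there gives no level.

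From E11.5 to P7 the 5 connexins were all called higher, and Gjb2, Gjb5, Gjb6 and Gjd4 were also called between E15.5 and P0. With each spot's own local background in place of the array median at extreme backgrounds, the E15.5 to P0 calls of Gjb6 (adjusted p = 0.203) and Gjd4 (adjusted p = 0.102, limma) were lost. The calls of Gjb5 (0.62, adjusted p = 0.108) and, with median centring in place of loess, of Gja1 (0.38, adjusted p = 0.0915, limma) from E11.5 to P7 were lost as well. The epidermal beta connexins Gjb2 and Gjb6 and the muscle connexin Gjd4 rose by more than 2 log2 units over the whole phase, whereas Gjb5 and Gja1 rose by less than 1. All 5 were called by the F-test over the 4 ages (adjusted p from 0.000229 for Gjb2 to 0.0113 for Gja1), where 30% of all tested genes were called. In the step from E11.5 to P7, 5 of 5 were called higher, against 16.8% of all tested genes. In the step from E15.5 to P0, 4 of 5 were called higher, against 11.3% of all tested genes. Since the genes were chosen with earlier results of these data known, such counts only describe them.

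Gjb2 read 0.58, 1.37 and 2.00 at E11.5 and 1.25, 1.78 and 2.00 at E15.5. It then read 3.83, 3.88 and 3.76 at P0 and 3.86, 4.23 and 3.77 at P7. The 6 embryonic arrays lay below all 6 postnatal ones, and P0 and P7 overlapped. From E15.5 to P0 Gjb2 rose by 2.15 (SE 0.31, 4.43-fold, adjusted p = 0.00129, limma), the mean of 2.95 for its brighter probe and 1.34 for its dimmer one. The dimmer probe was well above background in Cy5 on 0 of 3 arrays at E11.5 and 1 of 3 at E15.5. Its paralog Gjb6 read 0.93, 1.48 and 2.93 at E11.5, then 1.53, 2.78 and 2.72 at E15.5. At P0 it read 4.34, 5.04 and 4.62 and at P7 3.99, 5.0 and 4.66, so the embryonic and postnatal arrays did not overlap for Gjb6 either. Its rise from E15.5 to P0 was 2.33 (SE 0.50, 5.01-fold, adjusted p = 0.00978, limma). Reference RNA gave little signal for these genes. In Cy3, both Gjb6 probes and the brighter Gjb2 probe were well above background on 0 of the 6 embryonic arrays. In the ratios of the scanner software's processed signals, the same step of Gjb6 was 0.28 (adjusted p = 0.758, limma), and in the Cy5 channel alone, quantile-normalized between arrays, it was 2.35 (adjusted p = 0.00177, limma).

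Gjb5 lay below the reference at all 4 ages. It read -1.51, -0.78 and -1.46 at E11.5 and -1.49, -1.45 and -1.62 at E15.5, followed by -0.23, -0.21 and -0.52 at P0 and -0.47, -0.19 and -0.58 at P7. The embryonic and postnatal arrays did not overlap. Gjb5 rose by 1.20 from E15.5 to P0 (SE 0.19, 2.30-fold, adjusted p = 0.00235, limma) and by 0.84 from E11.5 to P7 (SE 0.19, adjusted p = 0.00934, limma). On 1 of the 3 E11.5 arrays its Cy5 signal was not well above background.

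Gja1 varied least over these ages. It read 0.11, -0.14 and -0.03 at E11.5, then -0.12, -0.03 and -0.30 at E15.5, then 0.46, 0.42 and 0.05 at P0, and 0.45, 0.84 and 0.51 at P7. P7 lay above both embryonic ages without overlap, with a rise of 0.62 from E11.5 (SE 0.15, 1.54-fold, adjusted p = 0.0113, limma). The step from E15.5 to P0 was 0.46 (SE 0.15, 95% interval 0.13 to 0.79) and missed the threshold (adjusted p = 0.0552, limma), although the 2 groups did not overlap. It was called without P0 replicate 3 (0.58, adjusted p = 0.0365) and without P7 replicate 2, an array of the same fit (adjusted p = 0.0416, limma). In the Cy5 channel alone the change from E11.5 to P7 was 0.58 and missed it too (adjusted p = 0.0887, limma).

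Gjd4 read -0.01, -0.11 and -0.14 at E11.5, where its Cy5 signal was well above background on 0 of 3 arrays. At E15.5 it read -0.36, 0.21 and 0.64, with 1 of 3 arrays above background. It reached 2.16, 2.27 and 2.63 at P0 and 3.13, 1.42 and 3.18 at P7. The embryonic and postnatal arrays did not overlap, and the second P7 array was low. From E15.5 to P0 Gjd4 was called higher (adjusted p = 0.00535, limma), but not with each spot's own local background (adjusted p = 0.102, limma), and no fold is given since only 1 E15.5 array measured it. From E11.5 to P7, the group mean of Gjd4 was at least 5.05-fold higher (adjusted p = 0.00127, limma), a bound since the E11.5 signal was not well above background. It was computed from the Cy5 channel after loess and Aquantile normalization, with each dim signal set no lower than the dimmest probe well above background on its array, which left the E11.5 signals as measured. Such a bound compares group means without the spread between arrays, holds on this scale only and is open to dye bias. The lower 95% limit of the change in log2 ratio was 1.74. With Cy5 alone and quantile normalization the log2 difference as measured was smaller, 2.15 (adjusted p = 0.000765, limma).

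Between E11.5 and E15.5, 0 of the 5 connexins were called, and 0 at an unadjusted p under 0.05. In the same comparison 0% of all tested genes were called by limma, and 320 genes had an unadjusted p under 0.05. Without the 2 arrays that stood with the other age, limma called 2675 genes, and with them Gjb2, higher by 0.91 at E15.5 (adjusted p = 0.0375), and Gjb6, higher by 1.55 (adjusted p = 0.0151). The other comparisons of the metaplasia phase called the same number of connexins without these arrays. The rise from E15.5 to P0 was then 1.93 for Gjb2 (adjusted p = 0.000532, limma), 1.22 for Gjb5 (adjusted p = 0.00489) and 1.92 for Gjb6 (adjusted p = 0.00275), and Gjd4 was called higher (adjusted p = 0.018). That from E11.5 to P7 was 0.61 for Gja1 (adjusted p = 0.021), 2.98 for Gjb2 (adjusted p = 1.3e-05), 0.73 for Gjb5 (adjusted p = 0.0239) and 3.34 for Gjb6 (adjusted p = 4.15e-05, limma), and Gjd4 was called higher (adjusted p = 0.00173). Between P0 and P7, 0 of 5 were called, against 2.43% of all tested genes called by limma. An unadjusted p under 0.05 was found for 0 of 5 and for 2799 of 19705 tested genes. The 95% intervals of these differences ran from -0.04 to 0.62 for Gja1, from -0.56 to 0.82 for Gjb2, from -0.52 to 0.33 for Gjb5, from -1.23 to 0.99 for Gjb6 and from -0.70 to 1.14 for Gjd4.

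In adult wild-type epithelium the keratinocyte connexins stood higher than in P7 esophagus, and Gjd4 stood lower. Among the 4 that rose, Gjb5 and Gja1 did so most. Of the 5 connexins, 4 were called higher, against 19.9% of all tested genes, and 1 was called lower, against 23%. Gja1 read 3.94, 3.70 and 3.46 in adults, 3.1 above P7 (SE 0.17, 8.55-fold, adjusted p = 2.62e-05, limma). Gjb5 read 3.16, 3.34 and 3.27, which was 3.67 above P7 (SE 0.14, 12.7-fold, adjusted p = 6.3e-06, limma). The adult arrays of both genes lay above every P7 wild-type array by more than 2 units.

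Gjb2 read 5.94, 5.46 and 5.61 in adults and rose by 1.72 (SE 0.18, 3.29-fold, adjusted p = 0.000363, limma). Gjb6 read 6.29, 6.13 and 6.49 and rose by 1.75 (SE 0.25, 3.37-fold, adjusted p = 0.00147, limma). Neither gene's adult arrays overlapped with P7. With each spot's own local background the 2 calls were lost: the change of Gjb2 was 0.15 (adjusted p = 0.869) and that of Gjb6 was -0.17 (adjusted p = 0.894, limma). Gjd4 read -0.31, -0.13 and -0.25 in adults, below all P7 arrays, and was well above background on 0 of 3. Its group mean was at least 5.32-fold lower than at P7 (adjusted p = 0.00212, limma), on the scale and with the limits described for the embryonic bound. The 95% interval of the change in log2 ratio was -3.84 to -1.78. With Cy5 alone and quantile normalization the log2 difference as measured was smaller, -2.30 (adjusted p = 0.00189, limma).

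Markers of other cells moved with age and tissue as well. Of the skeletal muscle markers, 13 of 13 were called lower in the adult epithelium and of the fibroblast markers 6 of 6, while 2 of 7 basal and 5 of 9 tested suprabasal keratinocyte markers were called higher. Of all tested genes, 23% were called lower and 19.9% higher. The mean level of the suprabasal list lay between 3.23 and 4.09 on P7 arrays and between 4.41 and 4.75 on adult arrays, and that of the basal list between 2.89 and 3.26 and between 3.20 and 3.61. The part of these differences in the rise of the keratinocyte connexins was not tested.

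**Figure D2:**
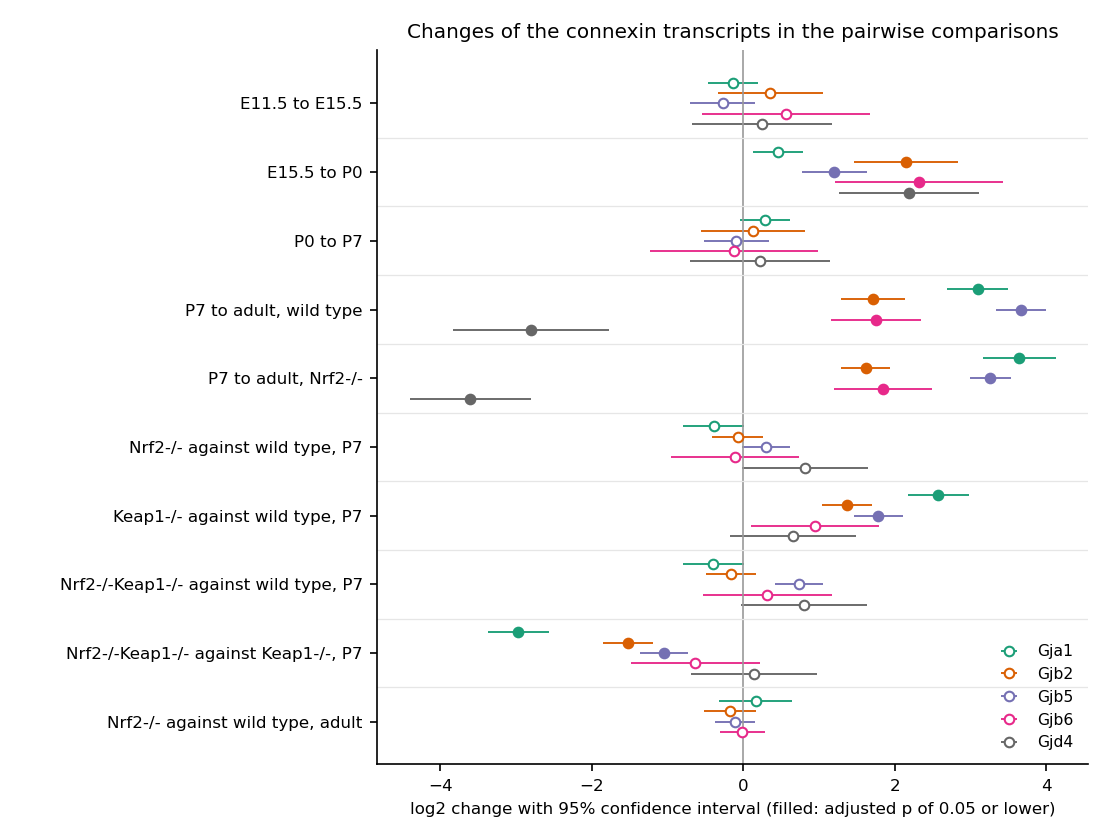
Change of each connexin in the pairwise comparisons, as a log2 difference with its 95% confidence interval from limma. Filled points passed the threshold. Points to the right of 0 are higher at the later age or in the genotype named first, and the 3 genes filled in Keap1-/- against wild type are filled on the opposite side in Nrf2-/-Keap1-/- against Keap1-/-.

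At P7, Gja1, Gjb2 and Gjb5 were higher in the arrays labelled Keap1-/- than in the wild type, and lower in Nrf2-/-Keap1-/- esophagi than in Keap1-/- ones. The F-test over the 4 genotypes called these 3 genes (adjusted p = 2.65e-06 for Gja1, 9.11e-05 for Gjb2 and 3.89e-05 for Gjb5, limma), against 33.8% of all tested genes. Gjb6 (adjusted p = 0.145, and 0.0301 without Keap1-/- replicate 1) and Gjd4 (adjusted p = 0.254) missed the threshold. Against the wild type, 3 of 5 connexins were called higher in Keap1-/- esophagi, where 15.4% of all tested genes were. In Nrf2-/-Keap1-/- against Keap1-/- esophagi, 3 of 5 were called lower, where 15.1% of all tested genes were. The 2 comparisons share the Keap1-/- arrays.

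Gja1 read 3.00, 3.41 and 3.12 in Keap1-/- esophagi, 2.58 above the wild type (SE 0.18, 5.96-fold, adjusted p = 4.07e-06, limma). In Nrf2-/-Keap1-/- esophagi it read -0.03, 0.31 and 0.34, which was 2.97 below Keap1-/- (SE 0.18, 7.83-fold, adjusted p = 1.38e-06, limma). The Keap1-/- arrays lay above all 9 other P7 arrays, and the Nrf2-/-Keap1-/- arrays lay below all 3 wild-type ones. The Cy3 signal of the Gja1 probe was between 2271 and 3099 on the Keap1-/- arrays and between 6050 and 6727 on the wild-type P7 arrays. Median Cy3 intensity of the whole array was lower there too, at 147, 115 and 145 against 223, 225 and 231. In the Cy5 channel alone the rise in Keap1-/- esophagi was 1.84 (adjusted p = 0.000194, limma) and the difference of Nrf2-/-Keap1-/- from Keap1-/- was -2.28 (adjusted p = 5.07e-05, limma).

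Gjb5 read 1.65, 1.25 and 1.23 in Keap1-/- esophagi, 1.79 above the wild type (SE 0.14, 3.45-fold, adjusted p = 1e-05, limma). It read 0.25, 0.31 and 0.43 in Nrf2-/-Keap1-/- esophagi, 1.05 below Keap1-/- on the log2 scale (2.07-fold, adjusted p = 0.000396, limma). The 3 groups did not overlap. The Nrf2-/-Keap1-/- arrays stood above all wild-type arrays by a mean of 0.74 (SE 0.14, 95% interval 0.42 to 1.06), which narrowly missed the threshold (adjusted p = 0.0572, limma). That difference was called with slide as a random block (0.74, adjusted p = 0.0233) and without Keap1-/- replicate 1 (adjusted p = 0.0387, limma).

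Gjb2 read 5.03, 5.34 and 5.59 in Keap1-/- esophagi, 1.37 above the wild type (SE 0.15, 2.58-fold, adjusted p = 8.95e-05, limma). In Nrf2-/-Keap1-/- esophagi it read 3.76, 3.81 and 3.83, lower than in Keap1-/- esophagi by 2.88-fold (adjusted p = 4.59e-05, limma) and overlapping with the wild type. This call was lost with the processed signals (-0.77, adjusted p = 0.0767), with the deposited table (adjusted p = 0.0766) and with the brighter probe (-0.23, adjusted p = 0.411, limma). In the mean of the 2 Gjb2 probes, Keap1-/- did not overlap with any other P7 group. By the brighter probe alone, Keap1-/- arrays (6.68 to 6.94) lay inside the wild-type range (6.23 to 7.11). Gjb6 read 4.69, 5.81 and 6.01 in Keap1-/- esophagi, and the first of these arrays lay inside the wild-type range. Its difference from the wild type was 0.95 (SE 0.38, 95% interval 0.10 to 1.80, adjusted p = 0.0805, limma). Without Keap1-/- replicate 1 the difference was 1.36 (adjusted p = 0.0128, limma), and with outlier-flagged spots left out it was 1.18 (adjusted p = 0.0472, limma). Gjb6 in Nrf2-/-Keap1-/- esophagi read 4.71, 4.90 and 4.99 and differed from Keap1-/- by -0.63 (95% interval -1.48 to 0.22, adjusted p = 0.236, limma), or by -1.04 without Keap1-/- replicate 1 (adjusted p = 0.0403, limma). Gjd4 read 3.29, 3.09 and 3.31 in Keap1-/- esophagi and 3.51, 3.07 and 3.56 in Nrf2-/-Keap1-/- ones, and both groups overlapped with the wild type.

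The size of the Gjb2 difference depended on the probe. The brighter probe had a Cy5 intensity of 3406 to 4911 on the wild-type P7 arrays and of 26093 to 69179 on the Keap1-/- arrays. Its Cy3 intensity was 144 to 157 on the former and 579 to 1141 on the latter, although the same reference RNA was on all arrays. The ratio of this probe differed by 0.22 (adjusted p = 0.424, limma). The dimmer probe had a Cy3 intensity of 51.1 to 63.0 in the wild type and 40.2 to 63.5 in Keap1-/- esophagi, and its log2 ratio went from between 1.31 and 1.40 to between 3.12 and 4.50. Its Cy3 was well above background on 0 of 3 wild-type and 2 of 3 Keap1-/- arrays. By that probe alone Gjb2 was higher by 2.51 in Keap1-/- esophagi (adjusted p = 4.2e-05, limma). In the Cy5 channel alone, the mean of both probes was higher by 2.65 (adjusted p = 5.62e-05, limma).

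Cy3 followed Cy5 for the brighter Gjb2 probe and both Gjb6 probes in adult epithelium too. Cy3 of the brighter Gjb2 probe ranged from 539 to 947 in adult wild type, and Cy3 of the 2 Gjb6 probes from 132 to 241 and from 144 to 276, compared with 64.1 to 65.0 and 78.1 to 95.6 at P7. From P7 to adult, the brighter Gjb2 probe rose by 1.05 (adjusted p = 0.0128, limma) and the dimmer one by 2.39 (adjusted p = 0.000223, limma) in the wild type. In Nrf2-/- mice the same change was 0.24 (adjusted p = 0.386) for the brighter probe and 3.00 (adjusted p = 1.46e-06, limma) for the dimmer one. In the Cy5 channel alone, Gjb6 was higher by 1.76 in Keap1-/- esophagi and was called there (adjusted p = 0.0424, limma). What moved Cy3 with Cy5 was not tested.

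**Figure D3:**
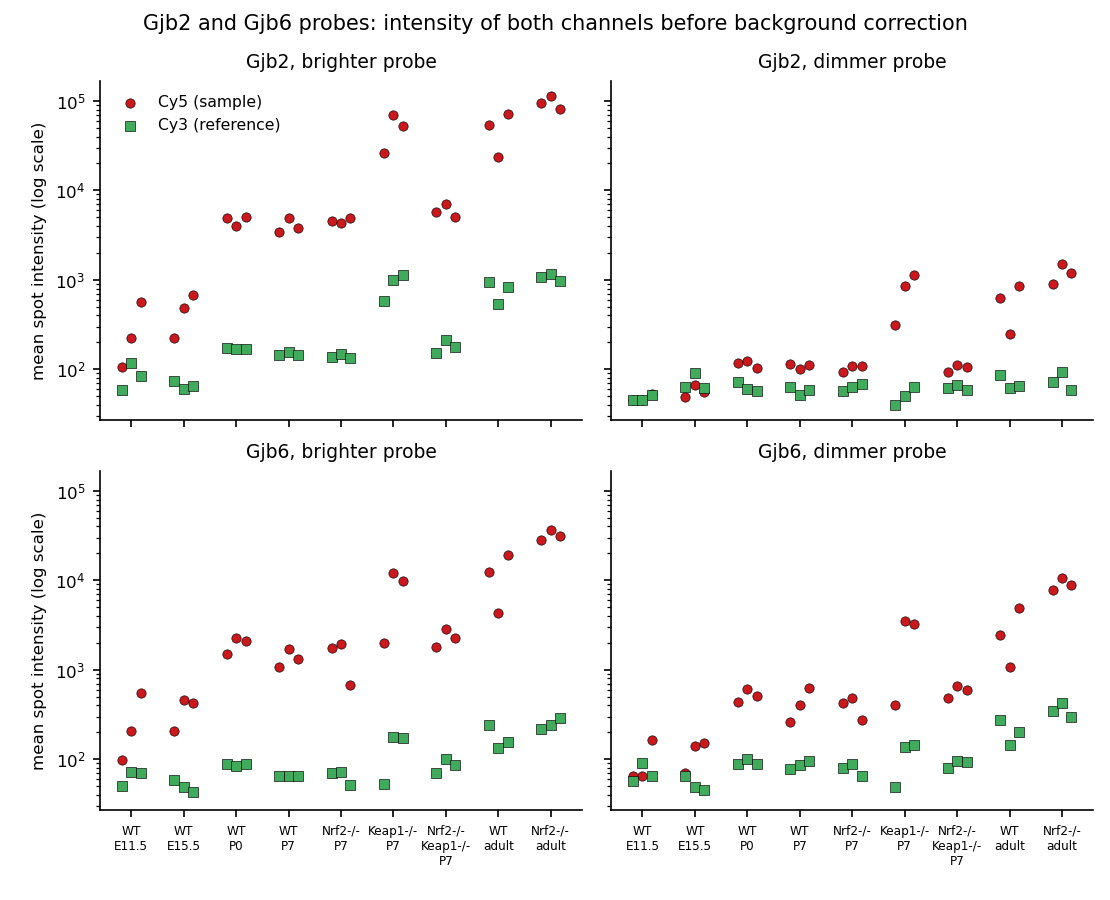
Mean spot intensity of the 2 Gjb2 probes and the 2 Gjb6 probes in Cy5 (sample) and Cy3 (reference) on every array, on a log axis and before background correction, by group. Cy3 of the brighter Gjb2 probe lay between 144 and 157 in wild-type P7 esophagi and between 579 and 1141 in Keap1-/- ones, where its Cy5 was also higher.

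Markers of other cells differed in the arrays labelled Keap1-/- as well. Of the fibroblast markers, 5 of 6 were called lower and of the smooth muscle markers 6 of 7, with the fibroblast mean between 0.46 and 0.92 there and between 1.75 and 2.07 in the wild type. Of the basal keratinocyte markers, 1 of 7 was called higher, and of the suprabasal ones 2 of 10 higher and 1 lower. Of all tested genes, 15.4% were called higher and 17.9% lower. The suprabasal mean lay between 3.25 and 4.04 in Keap1-/- and between 3.23 and 4.09 in wild-type esophagi. In the Nrf2-/-Keap1-/- group the mean of 4 fat markers ran from 4.42 to 5.57, compared with 1.55 to 2.51 in the wild type. The part of these differences in the connexin levels was not tested.

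Loss of Nrf2 alone gave no call among the connexins at either age. At P7, 0 of 5 were called between Nrf2-/- and wild type, against 0.0157% of all tested genes called by limma. An unadjusted p under 0.05 was found for 0 of 5 and for 2040 of 19064 tested genes. Gja1 read 0.31, 0.47 and -0.15 and differed by -0.39 (95% interval -0.80 to 0.01). Gjb5 read -0.19, -0.22 and 0.07 and differed by 0.30 (95% interval -0.02 to 0.61), and both genes overlapped with the wild type. Gjb2 (3.79, 3.91 and 3.93) differed by -0.08 (95% interval -0.41 to 0.26), and Gjb6 (4.69, 4.89 and 3.75) by -0.11 (95% interval -0.96 to 0.74). Gjd4 (3.24, 3.46 and 3.47) stood above all wild-type arrays, by a mean of 0.81 (95% interval -0.02 to 1.65, adjusted p = 0.475, limma). Against the wild type, Nrf2-/-Keap1-/- esophagi had 0 of 5 connexins called by limma, against 0.43% of all tested genes. An unadjusted p under 0.05 (limma) was found for 1 of 5, Gjb5, and for 3323 of 19064 tested genes.

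In adult epithelium 4 of the 5 connexins could be tested between Nrf2-/- and wild type, and 0 were called by limma, against 0.499% of all tested genes. An unadjusted p under 0.05 was found for 0 of 4 and for 3044 of 18049 tested genes. Gja1 read 3.69, 3.60 and 4.28 in Nrf2-/- adults, a difference of 0.16 (95% interval -0.32 to 0.64). Gjb2 read 5.41, 5.49 and 5.6, a difference of -0.17 (95% interval -0.52 to 0.17). For Gjb5 (3.22, 3.1 and 3.12) the difference was -0.11 (95% interval -0.37 to 0.15), and for Gjb6 (6.36, 6.20 and 6.32) it was -0.01 (95% interval -0.31 to 0.29). All 4 genes overlapped between the genotypes. The size and sign of these differences depended on the processing, with 0 calls in each case. With each spot's own local background they were 1.91 for Gjb6 (adjusted p = 0.106), 1.39 for Gjb2 (adjusted p = 0.124) and 0.95 for Gjb5 (adjusted p = 0.204, limma), outside the intervals above. With median centring they were 0.60, 0.27 and 0.51 in the same order (adjusted p = 0.159, 0.338 and 0.154, limma). By probe, Gjb2 differed by -0.69 (adjusted p = 0.157) and 0.34 (adjusted p = 0.569, limma). Of the 3 wild-type adult arrays, 2 were in scan 1, read with the older release of the scanner software, and 1 was in scan 2. The 3 Nrf2-/- adult arrays were in scans 2 and 3, read with the newer release, so that the genotypes shared scan 2 alone and can be told apart from scan and software only in part. The adult arrays of the genotypes shared no slide. With scan as a block, 0 of 4 were called. Gjd4 was well above background on 0 of 6 adult arrays and was not tested.

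From P7 to adult, the keratinocyte connexins were higher and Gjd4 lower in Nrf2-/- mice as well. The Nrf2-/- P7 arrays were all in scan 1 with the older software release, the Nrf2-/- adult arrays in scans 2 and 3 with the newer. They shared no slide either. From these arrays alone, age and tissue cannot be told apart from slide, scan and software. The test of the difference between the genotypes in the change with age used the same arrays. In Nrf2-/- mice 4 of 5 were called higher, against 27.1% of all tested genes, and 1 lower, against 28%. Gja1 rose by 3.65 (12.5-fold, adjusted p = 3.03e-07, limma), Gjb5 by 3.26 (9.59-fold, adjusted p = 1.72e-08), Gjb2 by 1.62 (3.07-fold, adjusted p = 5.39e-06) and Gjb6 by 1.85 (3.60-fold, adjusted p = 0.000301). With scan as a block the rise of Gjb6 was 1.55 (adjusted p = 0.0829, limma). In the ratios of processed signals the change of Gjb6 was -0.26 in Nrf2-/- mice (adjusted p = 0.403) and 0.56 in the wild type (adjusted p = 0.0982, limma), and that of Gjb2 in Nrf2-/- mice was 0.72 (adjusted p = 0.0892, limma). The group mean of Gjd4 was at least 7.59-fold lower in the adult (adjusted p = 1.19e-05, limma), a bound with the scale and limits described for the embryonic one. The 95% interval of the change in log2 ratio was -4.41 to -2.80. With Cy5 alone and quantile normalization the log2 difference as measured was smaller, -2.65 (adjusted p = 1.64e-05, limma). Tested directly, the difference between the genotypes in the change with age was called for 0 of 5, against 0.098% of all tested genes. An unadjusted p under 0.05 (limma) was found for 1 of 5, Gjb5, and for 2186 of 19395 tested genes. The difference was -0.41 for Gjb5 (95% interval -0.79 to -0.02, adjusted p = 0.421, limma) and 0.55 for Gja1 (95% interval -0.12 to 1.23, adjusted p = 0.522, limma).

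Gjd4 was set beside skeletal muscle, since the outer wall of the mouse esophagus turns into striated muscle around birth. The mean level of 13 skeletal muscle markers was 0.62, 0.18 and 1.49 on the 3 E11.5 arrays and -0.11, 1.81 and 2.17 on the 3 E15.5 arrays, where the third and the first are those that resembled the other age. Over the groups it was 3.39 at P0 and 4.15 at P7. In adult epithelium it was 1.01, and in Nrf2-/- adults 1.83. Of these markers, 7 of 13 were called higher from E15.5 to P0, 12 of 13 from E11.5 to P7, and 13 of 13 lower from P7 to adult in the wild type. The shares of all tested genes were 11.3%, 16.8% and 23% in the same order. The second wild-type P7 array, lowest for Gjd4 (1.42), was also lowest for the markers (3.59), with 4.37 and 4.51 on the other 2 arrays. Without it, the E11.5 to P7 rise of Gjd4 was still called (adjusted p = 4.81e-05, limma), and the differences of the mutants from the wild type at P7 lay between 0.08 and 0.23. Adult epithelium still had 12 of 13 muscle markers well above background, whereas Gjd4 was not. The Gjd4 probe was dim, with a Cy5 intensity of 119 to 402 at wild-type P7 and 45.2 to 49.2 in wild-type adults. Its loss of detection therefore does not set its fall apart from that of the markers. Whether muscle content set the level of Gjd4 was not tested.

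**Figure D4:**
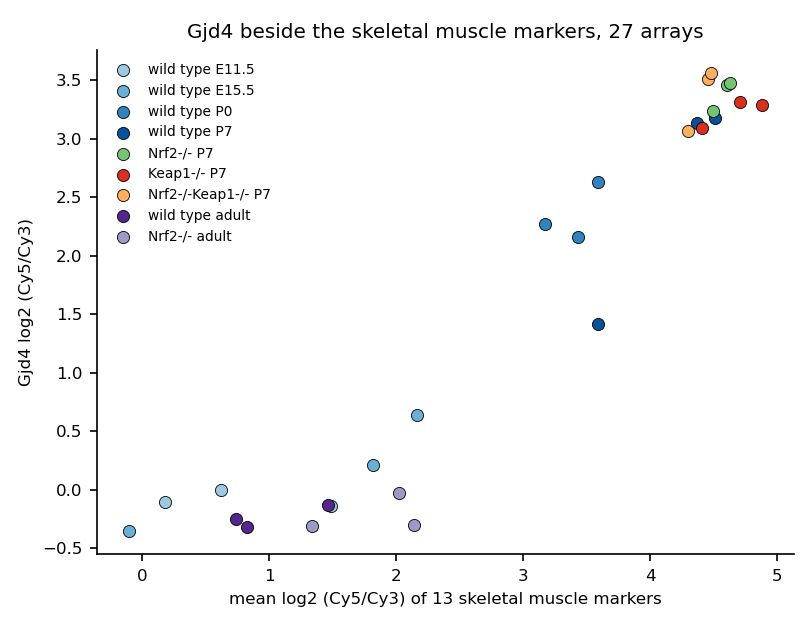
Gjd4 against the mean of 13 skeletal muscle markers on the 27 arrays, both as log2 of Cy5 over Cy3, with 1 point per array marked by group. Postnatal whole esophagi lie at the upper right, adult epithelium lies at the lower left with Gjd4 between -0.31 and -0.03, and the wild-type P7 array with Gjd4 at 1.42 lies below the other P7 arrays.

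Ordered by mean level, the 9 groups fell into 3 tiers for Gja1. Nrf2-/- adult (3.86) and wild-type adult (3.70) came first and overlapped, Keap1-/- P7 (3.18) followed without overlap, and the next group, wild-type P7 (0.60), lay 2.58 lower. The remaining groups each overlapped with their neighbour. For Gjb2 the 2 adult groups (5.67 and 5.50) and Keap1-/- P7 (5.32) overlapped in that order, the 3 other P7 groups and P0 formed the next tier from 3.95 to 3.80, and E15.5 (1.68) and E11.5 (1.32) lay lowest. Gjb5 had the most steps without overlap. The adult groups (3.26 and 3.15) were followed by Keap1-/- P7 (1.38), Nrf2-/-Keap1-/- P7 (0.33) and Nrf2-/- P7 (-0.11), each apart from the one before, and wild-type P0 and P7 overlapped with Nrf2-/- P7 and with each other. The embryonic groups (-1.25 and -1.52) were apart again. For Gjb6 the adult groups (6.30 and 6.29) stood apart from Keap1-/- P7 (5.50), which overlapped with a run of P7 and P0 groups down to 4.44, and the embryonic groups were lowest. Gjd4 ran from 3.39 in Nrf2-/- P7 through all postnatal whole esophagi to 2.35 at P0 with overlap at each step, then dropped to 0.16 at E15.5. E11.5 and both adult groups were not well above background and have no order among themselves.

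The other connexins on the array, 15 genes fixed as a list with earlier results known, moved in both directions. In the metaplasia phase 5 of 11 tested were called, Gja3, Gja4 and Gjc1 among them, against 30% of all tested genes. From E15.5 to P0 the lens connexin Gja3 (0.95, adjusted p = 0.0283) and the endothelial connexin Gja4 (1.11, adjusted p = 0.00885, limma) rose. Gjc1, a connexin of smooth muscle and the heart, fell by 0.85 in the same step (adjusted p = 0.0113, limma). From E11.5 to P7, Gja3 (1.19, adjusted p = 0.00752), Gja4 (1.28, adjusted p = 0.00299) and Gjc3 (0.66, adjusted p = 0.0447) were called higher, and Gjc1 was called lower (-0.82, adjusted p = 0.00977, limma).

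From P7 to adult wild type, 7 of 9 tested connexins outside the 5 were called, where 7735 of 18011 tested genes were. Of these connexins 5 were lower, against 23% of all tested genes. Gja3 fell by 1.45, Gja4 by 1.95, Gja5 by 1.12, Gjc1 by 2.76 and Gjc3 by 0.81 (adjusted p from 1.77e-05 for Gjc1 to 0.0099 for Gjc3, limma). In Nrf2-/- mice 6 of 11 tested connexins were called lower, against 28% of all tested genes. They were the same 5 and Gjd2, a neuronal connexin (-0.44, adjusted p = 0.0171, limma). Panx1, a pannexin that forms channels open to the outside of the cell, was lower in adults of both genotypes (-0.64 in the wild type, adjusted p = 0.0145, and -0.83 in Nrf2-/-, adjusted p = 0.000252, limma).

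In Keap1-/- esophagi, Gjc1 was lower (-0.96, adjusted p = 0.000723) and Panx1 was higher by 1.14 (adjusted p = 0.000292, limma). In Nrf2-/-Keap1-/- against Keap1-/- esophagi Panx1 (-0.87, adjusted p = 0.00147) was lower and Gjc1 (0.69, adjusted p = 0.00468) and Gjc3 (0.77, adjusted p = 0.00606, limma) were higher. Between Nrf2-/- and wild type, 0 connexins of the list were called at P7 and 0 in adults by limma, with 0 of 11 and 1 of 7 at an unadjusted p under 0.05. Of all tested genes, 0.0157% were called at P7 and 0.499% in adults. Unadjusted p was under 0.05 (limma) for 2040 of 19064 tested genes at P7 and 3044 of 18049 in adults.

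**Figure D5:**
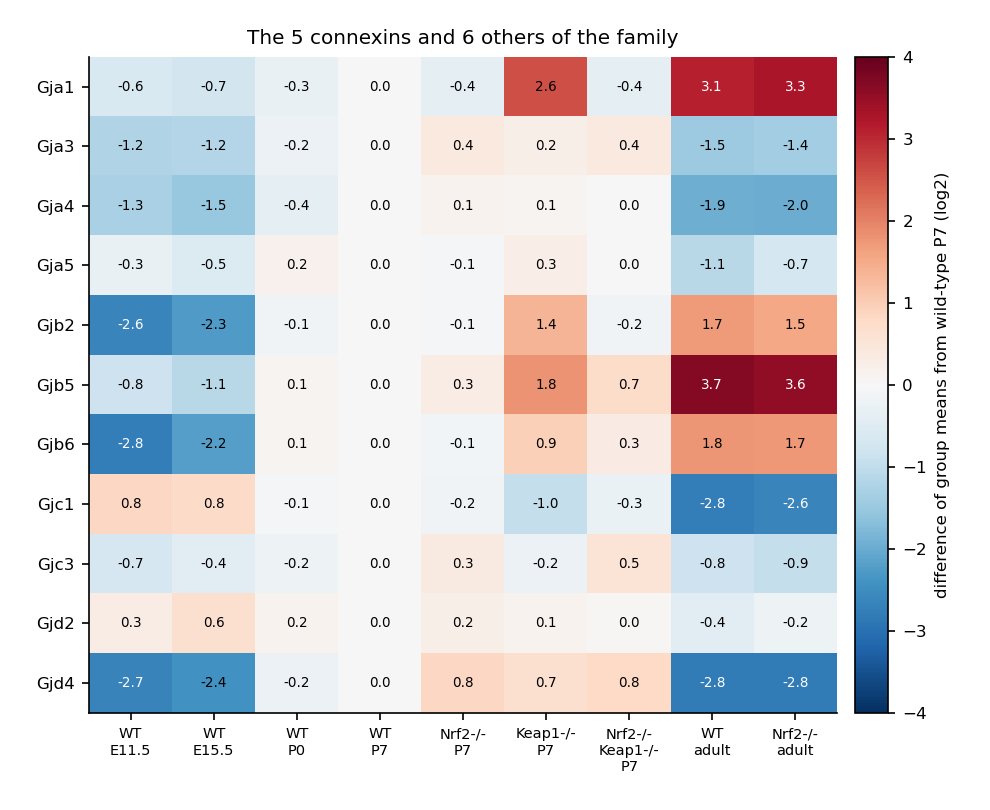
Difference of each group's mean from wild-type P7, as a log2 difference shown by colour and printed in each cell, for the 5 connexins and 6 others named in the text. Gja1, Gjb2 and Gjb5 share the colour for higher values in adult epithelium and in Keap1-/- P7, and Gjd4, Gja4 and Gjc1 have the colour for lower values in adult epithelium.

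Proteins that bind connexins or act on them were read as a list of 14 partners, all tested. In the metaplasia phase 8 of 14 were called, against 30% of all tested genes. Tjp3, a scaffold protein of tight junctions, had the lowest adjusted p, and Ccn3, a secreted matrix protein that binds Gja1, was among the next. From E15.5 to P0 Tjp3 rose by 2.10 and Ccn3 by 1.17 (adjusted p = 0.00115 and 0.0111, limma), and 6 of 14 partners were called higher, against 11.3% of all tested genes, and 0 lower. In Keap1-/- esophagi 1 of 14 was called higher, against 15.4%, and 4 lower, against 17.9%, among them Ccn3 (-1.60, adjusted p = 0.000627, limma). From P7 to adult wild type 1 was called higher, against 19.9%, and 4 lower, against 23%, with Ccn3 at -1.37 (adjusted p = 0.00262, limma).

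Genes with the most similar course were sought by Pearson's correlation of log2 ratios over the 27 arrays among 19042 genes. The arrays share the reference and the groups, so the values describe these arrays and carry no p. Nearest to Gja1 were Il1f9, a cytokine of the interleukin family, Sdr16c5, a retinol dehydrogenase, and Alg9, a mannosyltransferase (r = 0.987, 0.986 and 0.984). Nearest to Gjb2 were Dgat2, an enzyme of triglyceride synthesis, Sult2b1, a cholesterol sulfotransferase, and Cltb, a clathrin light chain (r = 0.987, 0.984 and 0.983). Nearest to Gjb5 were Adtrp, the transcription factor gene Tfap2a and Sh3bgrl2 (r = 0.984, 0.975 and 0.973). Gjb6 stood nearest to Grhl1, a transcription factor of the grainyhead family, Dgat2 and the kinase gene Map3k6 (r = 0.982, 0.980 and 0.980). Gjd4 stood nearest to Atp1b4, Chrna1, a subunit of the muscle acetylcholine receptor, and Mrln, which encodes a small peptide of the sarcoplasmic reticulum (r = 0.994, 0.991 and 0.990). Among the members themselves, r was 0.968 between Gjb2 and Gjb6 and 0.929 between Gja1 and Gjb5, and it lay between -0.31 and 0.16 between Gjd4 and the other 4.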

How the data were processed

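RNA of 27 mouse esophagus samples was hybridized to Agilent 4x44k arrays, the sample in Cy5 and a common reference in Cy3. The authors deposited scanner files with the mean intensity and local background of each spot, the processed signals of Agilent Feature Extraction, and a value table of log10 ratios of Cy5 to Cy3, which differed from the log ratios of that software by 0.005 at most. The file headers name Feature Extraction 10.5.1.1 (20 arrays) and 10.7.3.1 (7 arrays), while the labels name another version and the study's methods another scanner and program. The value table was used only as an alternative.

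From the deposited intensities, log2 ratios were computed with limma 3.58.1 and statmod 1.5.0 in R 4.3.3: normexp background correction with an offset of 50, loess within each array, control spots left out, outlier-flagged spots kept. Where the local background of a spot exceeded 5 times the median of its array, that median was put in its place and the spot was left out. Spots of a probe, then probes of a gene, were averaged. Separate fits held the metaplasia ages, the P7 genotypes, P7 and adult wild type, the adult genotypes, and both ages of wild type and Nrf2-/-. They gave p-values adjusted by Benjamini-Hochberg over 18011 to 19705 tested genes. The labels call the samples biological replicates, and the methods name individual esophagi. Precision is limited by the 3 arrays per group.

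The 5 members and all lists were chosen with earlier results of these data known. Named were the members, Nfe2l2 and Keap1, every called connexin or pannexin of the family list (15 other connexins and 2 pannexins on the array), the 3 partners with the lowest adjusted p over the 4 metaplasia ages, and the 3 genes most correlated with each member among genes measured on all arrays and well above background on at least 9. Some genes that this rule names are not reported here. Other cells were read by marker lists. The correlation of the deviations of same-numbered replicates ran from -0.43 to 0.61, and in no fit were all pairs over 0.1, so the fits hold no block. For E11.5 with P7, P0 with P7, and Keap1-/- with Nrf2-/-Keap1-/-, all 3 pairs were over 0.1, a link read from the data and not from the labels. The statistics were tested on simulated data. Alternatives are given in the closing section. Those named Cy5 channel alone and single probes were chosen after seeing the data.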

Additional observations from a re-analysis of the deposited data

How the results depend on the processing

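The count of called connexins in each comparison stayed within 1.5 times its value in 327 of 338 recalculations. With so few genes this limit is wide: the loss of 1 call from 5, 4 or 3 stays within it. The share therefore does not show that single calls were kept. With each spot's own local background it was 2 from E15.5 to P0 and 3 from P7 to adult wild type, where the change of Gjb6 turned to -0.17. In the ratios of processed signals, and likewise in the deposited table, 3 were called over the metaplasia ages and 3 from P7 to adult in Nrf2-/- mice, where the change of Gjb6 turned to -0.26. For Nrf2-/-Keap1-/- against wild type the count was 1 with median centring, with all 27 arrays in 1 fit and with slide as a random block. The cause of these changes was not tested. Without the arrays labelled E11.5 replicate 3 and E15.5 replicate 1, the step between these ages called 2 connexins. With single arrays left out, the count for Nrf2-/-Keap1-/- against wild type ranged from 0 to 1, and that from E15.5 to P0 from 4 to 5.

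With the replicate number as a block, 5 connexins were called from E15.5 to P0 (Gja1 adjusted p = 0.049, limma), and the counts of connexins in the other comparisons were unchanged. The block changed no call of a connexin in the comparisons of E11.5 with P7, P0 with P7 and Keap1-/- with Nrf2-/-Keap1-/-, where all same-numbered pairs deviated together.

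Among single genes, 1605 values kept their direction and side of the threshold, 34 lost and 19 gained it. Another 59 changed direction with no call under either setting, and 3 changed direction where the change had been called, all of Gjb6 from P7 to adult. The call of Gjb2 in Keap1-/- esophagi was lost with the processed signals (0.51, adjusted p = 0.222) and with the brighter probe (0.22, adjusted p = 0.421, limma). That of Gja1 over the metaplasia ages was lost with median centring (adjusted p = 0.174), the processed signals (0.0592), the deposited table (0.0636) and Cy5 alone (0.222). Gjb6 in Keap1-/- esophagi was called without background correction (0.99, adjusted p = 0.0361), with median centring (adjusted p = 0.043) and with slide as a block (adjusted p = 0.0391, limma). Scan lay in 1 day for the metaplasia arrays and could not be a block there. Signal near background limits Gjd4 in embryos and adults and the Cy3 channel of Gjb2 and Gjb6 in embryos. It also limits the dimmer Gjb2 probe later. Its Cy3 was well above background on 0 of 3 wild-type P7 arrays and 1 of 3 arrays in each adult group. Cy3 of Gjd4 was well above background on 1 of 3 Keap1-/- arrays.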
